A study of Mus musculus with 6 samples.

Results

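Claudins are the proteins that build the strands of the tight junction between epithelial cells. The 9 claudin genes examined here, *Cldn1*, *Cldn2*, *Cldn3*, *Cldn4*, *Cldn7*, *Cldn8*, *Cldn12*, *Cldn15* and *Cldn23*, were taken by gene symbol from the 17778 genes of the deposited expression file, and all 9 symbols were found. Colon RNA had been sequenced from 3 obesity-prone (OP) mice and 3 obesity-resistant (OR) mice, 1 library per mouse. All 6 were wild-type male C57BL/6J mice that had eaten a high-fat diet with 60% fat for 16 weeks and were 21 weeks old. The same diet was given to both groups, which were separated only by weight gain on it: the mice that gained most were called OP, those that gained least OR, and mice between these extremes were left out. Each library came from a piece of whole colon whose position along the colon is not given in the sources used here. Expression is given as FPKM, a fragment number scaled by transcript length and by library size, so levels can be compared between genes, but read totals and counting error are unknown. Of the 9 claudins, 8 had at least 0.5 FPKM in at least 3 mice and were tested with the 13520 genes that passed this filter, and *Cldn1* did not pass.

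The colon is lined by a single sheet of epithelial cells, and solutes that pass between these cells have to cross the claudin strands. Some claudins seal this path, whereas others form channels in it that let small ions through. *Cldn2* encodes a channel for cations and water and *Cldn15* a channel for sodium and other cations, and *Cldn2* is known mainly from the crypts of the intestine. *Cldn1*, *Cldn3*, *Cldn4* and *Cldn8* are counted here as sealing claudins. The roles of *Cldn7*, *Cldn12* and *Cldn23* are less settled, and they were placed in neither class.

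The 4 promoters below are shown because they belong to both pore-forming claudins and to *Cldn3* and *Cldn4*, sealing claudins that are direct neighbours among the protein-coding genes of chromosome 5. They are the 250 bases before the start site in RefSeq on GRCm38.p6, each read 5′ to 3′ on the strand of its gene, while the submitters' processing notes name GRCm39, so their positions were not matched to the expression file. The capitals mark matches to TTTATG (the core bound by CDX factors), TATAAA (the TATA box), GGGCGG (a GC box, bound by SP1) or TGANTCA (an AP-1 site), searched on both strands. The window of *Cldn2* is chrX:139800558-139800807 on the plus strand, that of *Cldn15* chr5:136967619-136967868 on the plus strand, that of *Cldn3* chr5:134985964-134986213 on the plus strand and that of *Cldn4* chr5:134946935-134947184 on the minus strand.
*Cldn2*: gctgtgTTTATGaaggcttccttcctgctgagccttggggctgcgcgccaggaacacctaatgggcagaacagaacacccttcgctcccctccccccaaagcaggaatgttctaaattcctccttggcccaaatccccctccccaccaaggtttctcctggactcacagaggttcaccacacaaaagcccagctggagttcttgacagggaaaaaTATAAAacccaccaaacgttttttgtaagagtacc
*Cldn15*: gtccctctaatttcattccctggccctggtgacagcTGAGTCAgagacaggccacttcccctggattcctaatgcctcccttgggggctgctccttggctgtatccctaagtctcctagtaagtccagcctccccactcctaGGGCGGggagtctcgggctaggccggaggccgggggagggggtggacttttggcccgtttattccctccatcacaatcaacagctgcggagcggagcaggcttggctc
*Cldn3*: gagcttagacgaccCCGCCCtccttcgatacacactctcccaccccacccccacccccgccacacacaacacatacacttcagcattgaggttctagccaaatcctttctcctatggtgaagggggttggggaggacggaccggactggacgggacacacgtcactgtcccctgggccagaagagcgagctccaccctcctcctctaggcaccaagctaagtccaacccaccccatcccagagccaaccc
*Cldn4*: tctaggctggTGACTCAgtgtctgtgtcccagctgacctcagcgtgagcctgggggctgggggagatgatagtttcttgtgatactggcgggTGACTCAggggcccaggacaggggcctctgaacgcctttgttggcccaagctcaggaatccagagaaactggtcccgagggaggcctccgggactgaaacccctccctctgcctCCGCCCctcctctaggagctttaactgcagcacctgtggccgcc
*Cldn2* held TTTATG from 244 to 239 bases before the start and TATAAA from 35 to 30 bases before it. *Cldn15* held 1 match to GGGCGG and 1 to TGANTCA, *Cldn3* held 1 to GGGCGG, and *Cldn4* held 1 to GGGCGG and 2 to TGANTCA. Matches did not overlap each other. Of 32851 promoter windows of this length, 10.8% held TTTATG, 12.4% TATAAA, 32.7% GGGCGG and 6.75% TGANTCA. CAAAGTNCA (HNF4), AACCGGTT (GRHL) and the longer motif of HNF1 had no match in these 4 windows, and 1.19%, 0.116% and 0.00913% of all windows held them. Promoters were listed for 7 of the 9 claudins, and *Cldn8* and *Cldn23* had no entry.

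*Cldn7* and *Cldn3* were by far the most expressed claudins in the colon of OP and OR mice. Together they made up between 76.0% (OR mouse 3) and 87.6% (OP mouse 1) of the summed FPKM of all *Cldn* genes, which lay between 1503 and 1994 per mouse. Averaged over the 6 mice, the levels from high to low were *Cldn7* (752 FPKM), *Cldn3* (600 FPKM), *Cldn15* (123 FPKM), *Cldn4* (49.7 FPKM), *Cldn2* (48.6 FPKM), *Cldn23* (37.8 FPKM), *Cldn12* (20.2 FPKM), *Cldn8* (14.6 FPKM) and *Cldn1* (0.40 FPKM). *Cldn7* was above *Cldn3* in 6 of 6 mice, although their ranges overlapped, and *Cldn3* was above *Cldn15* without overlap. *Cldn4*, *Cldn2* and *Cldn23* could not be ranked: *Cldn4* was above *Cldn2* in 2 of 6 mice and *Cldn2* above *Cldn23* in 3 of 6. *Cldn23* was above *Cldn12* without overlap, *Cldn12* was above *Cldn8* in 5 of 6 mice, and *Cldn1* was below *Cldn8* in 6 of 6.

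**Figure D1:**
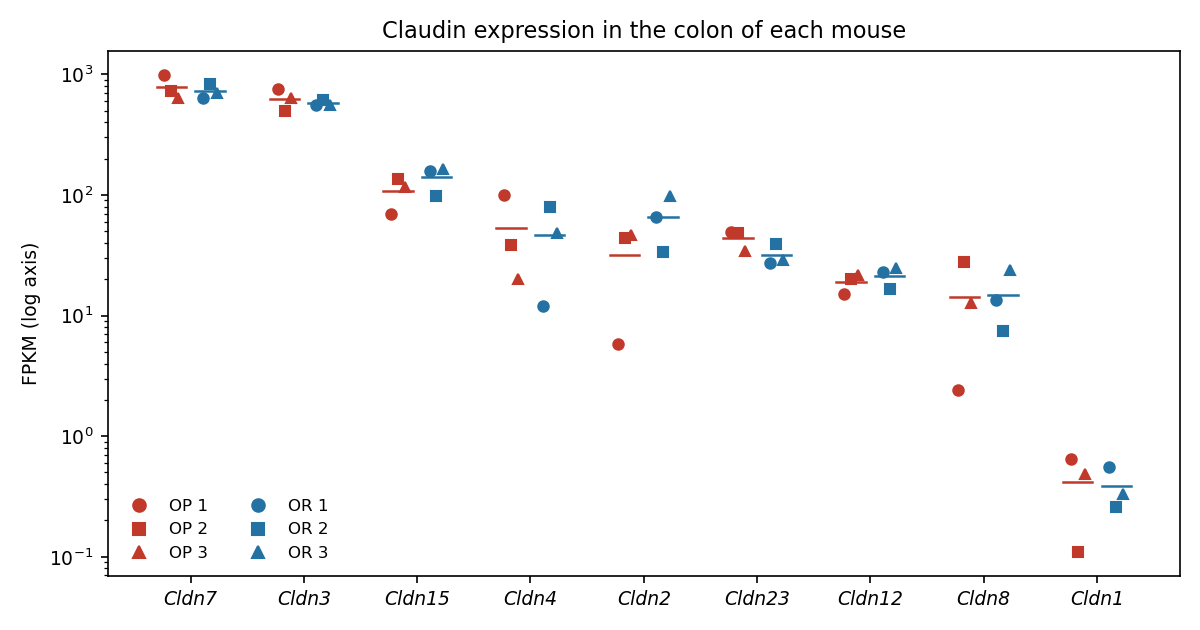
FPKM of the 9 claudins on a log axis in each of the 3 OP mice (red) and 3 OR mice (blue), with a short line at the mean of each group. *Cldn7* and *Cldn3* lie at the top with a narrow spread, *Cldn4*, *Cldn2* and *Cldn8* spread widely within both groups, and OP mouse 1 has the lowest *Cldn2* and *Cldn8*.

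The question behind the comparison was whether mice that became obese on the diet differ in barrier genes of the colon from mice that did not. For the claudins, 0 of the 8 genes tested passed the threshold, a fold change no smaller than 1.2 (or no larger than 0.83) together with a q-value below 0.2 (limma-trend, Benjamini-Hochberg adjustment over all genes), where 0.0222% of all genes tested passed it. The q-values of the 8 claudins lay between 0.945 and 0.969 in limma-trend. The fitted value was higher in OP mice for 4 claudins and lower for 4, with a median log2 fold change OP/OR of -0.04, beside -0.10 over all genes tested, of which 29.9% were higher and 70.1% lower in OP mice. With median-of-ratios scaling, which divides each mouse by a size factor, 48.0% of all genes were lower, and the claudins still split into 4 higher and 4 lower, with a median of 0.10. The size factor was 0.803 for OP mouse 1 and between 0.983 and 1.106 for the other mice. Without OP mouse 1, and without this scaling, 52.6% of all genes were lower, with a median of -0.01. The claudins then split into 2 higher and 6 lower, with a median of -0.06. An unadjusted limma-trend p below 0.05 was reached by 0 of the 8, against 4.03% of all genes tested, although *Cldn23* fell below 0.05 under 4 of 13 alternatives. In 0 of the 8 genes did the OP and OR mice separate without overlap, which 8.44% of all genes did, 1.63% with every OP mouse higher and 6.81% with every OP mouse lower.

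**Figure D2:**
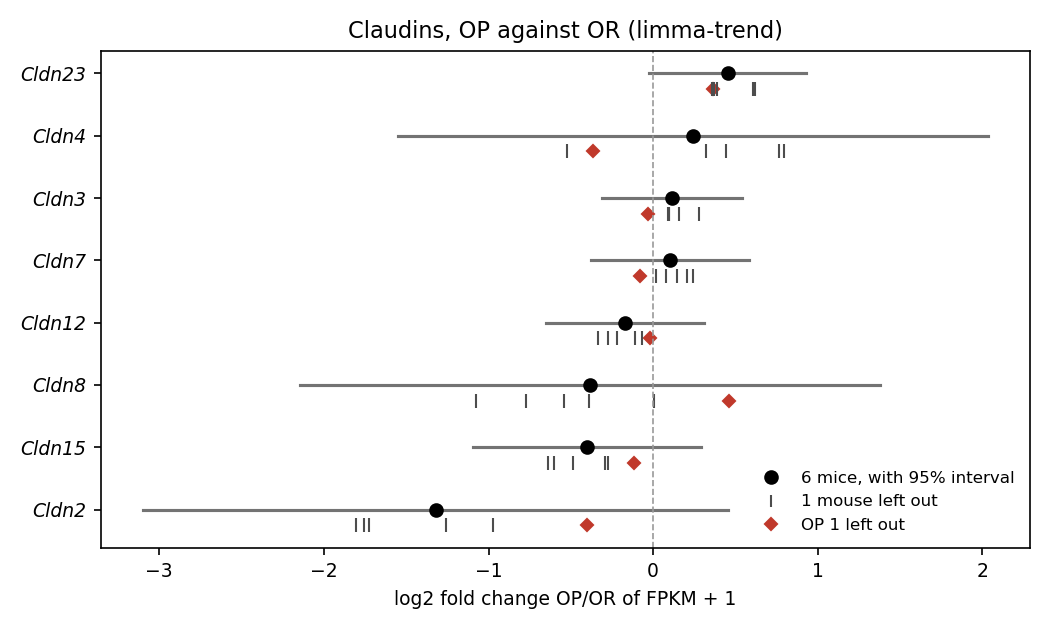
Log2 fold change OP/OR of the 8 claudins tested, on the scale of FPKM + 1, with the 95% interval of limma-trend (grey line), the values with 1 mouse left out (ticks) and the value without OP mouse 1 (red diamond). Every interval includes 0, and those of *Cldn2*, *Cldn4* and *Cldn8* are the widest.

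Among the pore-forming claudins, *Cldn2* had the largest fitted difference of the 8 claudins and, on the log2 scale, the widest spread over the 6 mice. It reached 5.79, 43.55 and 46.62 FPKM in OP mice 1, 2 and 3, against 65.08, 33.62 and 97.1 FPKM in OR mice 1, 2 and 3. OP mouse 1 stood far below the others, OR mouse 3 was highest, and the groups overlapped because OR mouse 2 was below OP mice 2 and 3. The means were 32.0 ± 22.7 (SD, n = 3) for the OP mice and 65.3 ± 31.7 (SD, n = 3) for the OR mice. The log2 fold change OP/OR was -1.32 (standard error 0.76, 95% interval -3.10 to 0.46, adjusted p = 0.945 from limma-trend), and the two-sided exact permutation test of the means gave p = 0.3, where 0.1 is the smallest p that 3 mice against 3 allow. Without OP mouse 1 the log2 fold change of *Cldn2* was -0.40.

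*Cldn15* was expressed more strongly than *Cldn2* in every mouse and varied less. It reached 68.78, 135.63 and 116.23 FPKM in OP mice 1, 2 and 3, against 158.32, 97.96 and 162.55 FPKM in OR mice 1, 2 and 3. Again OP mouse 1 was lowest and OR mouse 2 the next, whereas OR mice 1 and 3 were highest. The log2 fold change was -0.40 (standard error 0.30, 95% interval -1.10 to 0.29, adjusted p = 0.945 from limma-trend; exact permutation p = 0.3), and -0.12 without OP mouse 1. The ratio of *Cldn2* to *Cldn15* was 0.0842 in OP mouse 1, between 0.321 and 0.401 in OP mice 2 and 3, and from 0.343 to 0.597 over the OR mice, so OP mouse 1 was further below the other mice in *Cldn2* than in *Cldn15*.

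No pattern was common to all the sealing claudins. *Cldn3*, which encodes a claudin found along the whole colonic epithelium, reached 755.27, 493.87 and 633.94 FPKM in OP mice 1, 2 and 3, against 555.63, 608.59 and 551.69 FPKM in OR mice 1, 2 and 3. The OP mice enclosed the OR mice on both sides, and the 3 OR mice lay within 1.10-fold of each other. Its log2 fold change of 0.11 had a standard error of 0.18 and an adjusted limma-trend p of 0.952, with a 95% interval from 0.805-fold to 1.45-fold on the scale of FPKM + 1.

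*Cldn4*, a sealing claudin of the surface epithelium, reached 100.49, 38.23 and 20.09 FPKM in OP mice 1, 2 and 3, against 11.9, 79.22 and 48.22 FPKM in OR mice 1, 2 and 3. The highest value belonged to an OP mouse and the lowest to an OR mouse, but the spread within each group was far larger than the gap between them. Within the OR mice alone the highest *Cldn4* was 6.66 times the lowest. The means were 52.9 ± 42.2 (SD, n = 3) for the OP mice and 46.4 ± 33.7 (SD, n = 3) for the OR mice. The log2 fold change was 0.24 (standard error 0.76, 95% interval -1.55 to 2.03, adjusted p = 0.969 from limma-trend), and it turned to -0.37 without OP mouse 1 and to -0.52 without OR mouse 1.

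*Cldn8*, which encodes a sealing claudin that limits the back-leak of sodium and is known from the distal colon and the collecting duct of the kidney, reached 2.43, 27.7 and 12.75 FPKM in OP mice 1, 2 and 3. In OR mice 1, 2 and 3 it stood at 13.35, 7.48 and 23.81 FPKM. The lowest and the highest of the 6 values were both in OP mice, a spread of 11.4-fold, against 3.18-fold among the OR mice. The means were nearly equal at 14.3 ± 12.7 (SD, n = 3) for the OP mice and 14.9 ± 8.27 (SD, n = 3) for the OR mice. The log2 fold change of -0.39 (standard error 0.75, 95% interval -2.15 to 1.38, adjusted p = 0.957 from limma-trend) became 0.46 without OP mouse 1 and 0.0040 without OR mouse 3. *Cldn1*, a sealing claudin best known from the skin, was barely expressed, at 0.65, 0.11 and 0.49 FPKM in OP mice 1, 2 and 3, against 0.56, 0.26 and 0.33 FPKM in OR mice 1, 2 and 3. When *Cldn1* was admitted by a looser filter its log2 fold change was 0.02, with a standard error of 0.16 and an adjusted limma-trend p of 0.989 over 17775 genes.

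Of the 3 remaining claudins, *Cldn23* came closest to a separation of the groups. It reached 48.93, 48.5 and 33.96 FPKM in OP mice 1, 2 and 3, against 27.44, 39.08 and 28.62 FPKM in OR mice 1, 2 and 3. OP mice 1 and 2 were above every OR mouse, but OP mouse 3 was below OR mouse 2. The means were 43.8 ± 8.52 (SD, n = 3) for the OP mice and 31.7 ± 6.41 (SD, n = 3) for the OR mice. The log2 fold change was 0.45 (standard error 0.20, 95% interval -0.02 to 0.93), with an unadjusted limma-trend p of 0.0591, the smallest among the 8 claudins, an adjusted p of 0.945 and an exact permutation p of 0.2. When any one mouse was left out, *Cldn23* stayed between 0.36 and 0.62. Its unadjusted p was 0.0221 with sample weights, 0.0476 with a replicate block, 0.0161 without OP mouse 3 and 0.0234 without OR mouse 2, with adjusted limma-trend p-values between 0.439 and 0.999.

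*Cldn7*, which is abundant along the lateral membranes of colonocytes and binds the adhesion protein EpCAM, reached 992.52, 723.24 and 634.19 FPKM in OP mice 1, 2 and 3, against 640.67, 825.47 and 697.19 FPKM in OR mice 1, 2 and 3. OP mouse 1 and OR mouse 2 were the highest of their groups, as they were for *Cldn4*. Its log2 fold change of 0.10 had a standard error of 0.21 and an adjusted limma-trend p of 0.957, with a 95% interval from -0.38 to 0.58. *Cldn12*, a claudin linked to calcium passage in the intestine, reached 14.98, 20.06 and 21.68 FPKM in OP mice 1, 2 and 3, against 23.09, 16.73 and 24.55 FPKM in OR mice 1, 2 and 3. Its log2 fold change of -0.17 had a standard error of 0.21 and an adjusted limma-trend p of 0.945, with a 95% interval from 0.636-fold to 1.24-fold. OP mouse 1 and OR mouse 2 were the lowest of their groups, as they were for *Cldn2* and *Cldn15*. Without OP mouse 1 the log2 fold changes of *Cldn3*, *Cldn7* and *Cldn12* were -0.03, -0.08 and -0.02.

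The balance of sealing against pore-forming claudins was read within each mouse. The summed FPKM of *Cldn1*, *Cldn3*, *Cldn4* and *Cldn8* was 11.5, 3.12 and 4.10 times that of *Cldn2* and *Cldn15* in OP mice 1, 2 and 3 and 2.60, 5.29 and 2.40 times in OR mice 1, 2 and 3. OP mouse 1 was highest and OR mice 1 and 3 were lowest, but OR mouse 2 was above OP mice 2 and 3, so the groups overlapped. As the difference of mean log2(FPKM + 1) between the classes, which weights each gene equally, the values were 0.24, -1.48 and -1.71 in OP mice 1, 2 and 3 and -2.36, -1.12 and -2.04 in the OR mice. The mean of this difference was higher in OP mice by 0.86, with an SD of 1.06 among the OP mice and 0.64 among the OR mice, and by 0.25 without OP mouse 1. Since *Cldn3* supplied most of the sealing sum, the ratio of *Cldn4* to *Cldn2* was also taken. It was 17.4, 0.878 and 0.431 in OP mice 1, 2 and 3 and 0.183, 2.36 and 0.497 in OR mice 1, 2 and 3. Here too OR mouse 2 was above OP mice 2 and 3, and OR mouse 3 was also above OP mouse 3.

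**Figure D3:**
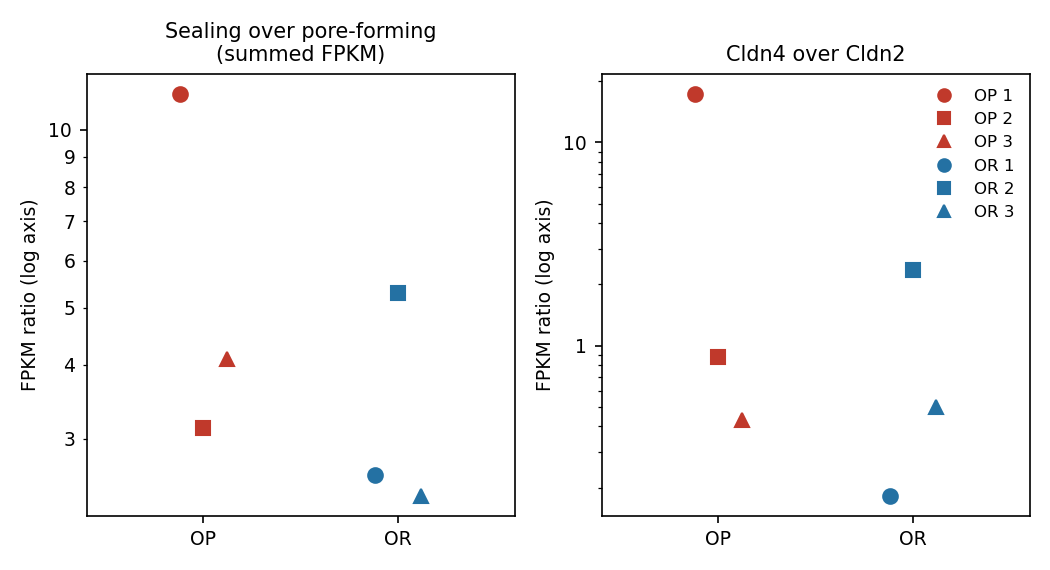
Ratio of the summed FPKM of sealing (*Cldn1*, *Cldn3*, *Cldn4*, *Cldn8*) to pore-forming claudins (*Cldn2*, *Cldn15*) on the left and of *Cldn4* to *Cldn2* on the right, both on log axes, 1 point per mouse. In both panels OP mouse 1 is the highest of the 6 and OR mouse 2 lies above the other OR mice and above OP mice 2 and 3.

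Across the 6 mice most of the claudins fell into sets that followed each other irrespective of the group. The mice stood in the same order for *Cldn2* and *Cldn12*, with OP mouse 1 lowest, then OR mouse 2, OP mouse 2, OP mouse 3, OR mouse 1 and OR mouse 3. In other words, 15 of the 15 pairs of mice were ordered alike by these genes, and 14 of 15 by *Cldn2* and *Cldn15*. *Cldn8* followed the same genes, with 12 of 15 pairs ordered as by *Cldn2* and 13 of 15 as by *Cldn15*, but only 1 of 15 as by *Cldn3* and 4 of 15 as by *Cldn4*. The sealing claudin *Cldn8* thus varied with the pore-forming claudins and not with the other sealing ones. *Cldn4*, *Cldn7* and *Cldn23* made up the other set, with 12 or 13 of 15 pairs ordered alike, and each of them shared only 2 or 3 of 15 pairs with *Cldn2*. *Cldn3* shared 10 of 15 pairs with *Cldn4*, 9 with *Cldn23* and 8 with *Cldn7*. It shared 4 with *Cldn2*, 4 with *Cldn12* and 3 with *Cldn15*. These counts describe 6 mice whose FPKM values are shares of one total per library, and they carry no test. Over all genes tested, the deviations of OP mouse 1 and OR mouse 2 from their group means correlated at 0.537. The likeness of these mice was thus not particular to the claudins.

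Genes of the crypt and of the surface were set beside this order, since *Cldn2* is known from crypt cells. Averaged over 10 genes of the crypt base and of cycling cells, log2(FPKM + 1) deviated from its mean over the 6 mice by -1.08, 0.29 and 0.02 in OP mice 1, 2 and 3 and 0.50, -0.01 and 0.27 in OR mice 1, 2 and 3. OP mouse 1, the mouse with the least *Cldn2*, was also lowest here, and OR mouse 2 was the next, close to OP mouse 3. The other mice stood in another order than for *Cldn2*: OR mouse 3, highest in *Cldn2*, was below OP mouse 2 and OR mouse 1. Averaged over 11 genes of surface colonocytes it deviated by 0.80, 0.77 and -0.53 in OP mice 1, 2 and 3, against -0.62, 0.36 and -0.77 in OR mice 1, 2 and 3, so that OP mice 1 and 2 and OR mouse 2 were high. By fitted value 10 of 10 crypt genes tested were lower and 11 of 11 surface genes were higher in OP mice, the medians being -0.53 and 0.44, but 0 of these genes had an unadjusted limma-trend p below 0.05. Without OP mouse 1, 7 of 10 crypt genes were lower, with a median of -0.25, and 9 of 11 surface genes higher, with a median of 0.085. Over the 6 fits with 1 mouse left out the crypt median lay between -0.80 and -0.25 and the surface median between 0.085 and 0.71. Without OP mouse 2, 4 crypt genes were lower with an unadjusted limma-trend p below 0.05, as were 615 of all 13405 genes. Without OP mouse 3, 2 surface genes were higher at this p, as were 178 of all 13340 genes. Without OR mouse 2, 1 crypt gene was lower at this p, as were 512 of all 13394 genes. In each fit without OP mouse 1, OR mouse 1 or OR mouse 2, 1 surface gene was higher at this p. Of all genes, 97 of 13453, 52 of 13316 and 125 of 13394 were higher at this p in these fits. *Aqp8*, a water channel of surface colonocytes, reached 1060.04, 1084.04 and 39.4 FPKM in OP mice 1, 2 and 3, against 10.08, 357.96 and 25.29 FPKM in OR mice 1, 2 and 3. OP mice 1 and 2 and OR mouse 2 stood far above the other mice in *Aqp8*, and OP mouse 1 and OR mouse 2 were also the mice with the least *Cldn2*. *Car4*, a carbonic anhydrase of the surface, lay between 371.75 and 808.43 FPKM in OP mice and between 228.36 and 485.87 FPKM in OR mice. *Top2a* and *Cdk1*, which cycling cells express, were both lowest in OP mouse 1. *Top2a* reached 4.23, 14.82 and 8.52 FPKM in OP mice 1, 2 and 3 and lay between 13.59 and 16.9 FPKM in OR mice. *Cdk1* reached 1.81, 4.72 and 2.36 FPKM in OP mice 1, 2 and 3 and lay between 4.05 and 4.93 FPKM in OR mice. For both genes OP mouse 2 was thus within the range of the OR mice. The part of crypt and surface content in the claudin values was not tested, and in pieces of tissue fewer crypt cells and less RNA per crypt cell cannot be told apart.

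**Figure D4:**
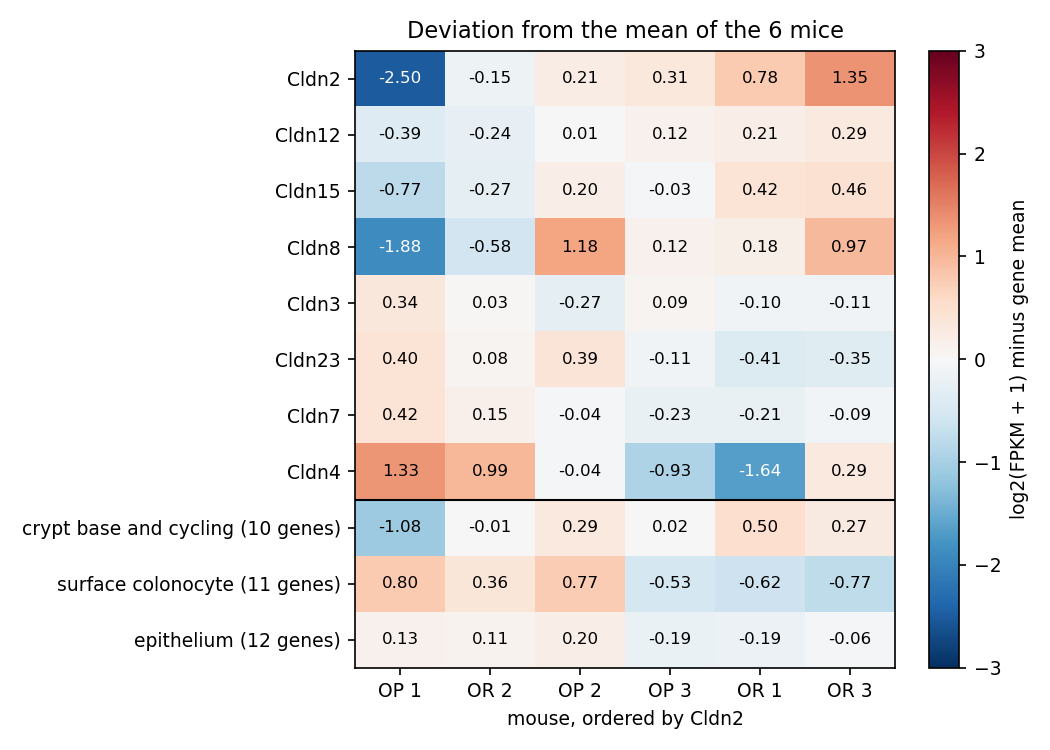
Deviation of log2(FPKM + 1) from the mean of the 6 mice for the 8 claudins tested (above the line) and, averaged over genes, for 3 marker lists (below it), with the mice ordered from the lowest to the highest *Cldn2*. OP mouse 1 is low in *Cldn2*, *Cldn8*, *Cldn15*, *Cldn12* and the crypt list and high in *Cldn4*, *Cldn7*, *Cldn23* and the surface list.

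The claudins with the largest SD of log2(FPKM + 1) over the 6 mice were *Cldn2*, *Cldn4* and *Cldn8*, and the 3 genes with the nearest pattern were listed for each, by the root mean square difference of their deviations from their own mean on the log2(FPKM + 1) scale. For *Cldn2* they were *Aqp1*, a water channel (0.27), *Lpo*, which encodes lactoperoxidase (0.35), and *Foxa3*, a transcription factor (0.36). *Aqp1* reached 8.15, 35.07 and 56.95 FPKM in OP mice 1, 2 and 3, against 70.82, 32.36 and 79.45 FPKM in OR mice 1, 2 and 3, the same order of mice as *Cldn2*. For *Cldn4* they were the histone gene *H4c18* (0.21), *Insig1*, a brake on sterol synthesis (0.44), and *Rnf24* (0.47). For *Cldn8* they were *Mt3*, a metallothionein (0.11), *Hid1*, which acts in the sorting of secretory granules (0.16), and *Nrp2*, a neuropilin (0.21). *Mt3* stood at 1.01, 14.42 and 5.87 FPKM in OP mice 1, 2 and 3, against 6.2, 3.66 and 14.42 FPKM in OR mice 1, 2 and 3. These genes were found by searching all 13520 tested, and their nearness is a description with no test.

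The file held 14 further *Cldn* genes, of which 11 stayed below 1 FPKM in every mouse and 3 passed the filter. *Cldn5*, the claudin of blood vessels, reached 2.66, 2.79 and 4.04 FPKM in OP mice 1, 2 and 3, against 3.76, 4.29 and 6.55 FPKM in OR mice 1, 2 and 3 (log2 fold change -0.48, standard error 0.24, adjusted p = 0.945 from limma-trend). Every mouse thus had far less *Cldn5* than *Cldn15*, and OP mouse 3 overlapped the OR mice. *Cldn10*, which forms ion channels in kidney and gland epithelia, lay between 1.23 and 2.03 FPKM in OP mice and between 0.39 and 1.57 FPKM in OR mice. *Cldn14* was listed at 0 in OP mouse 1 and reached at most 1.52 FPKM, in OP mouse 2.

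The genes for the partners of the claudins in the junction were also not called. Of 12 membrane proteins of the tight junction tested, 8 were higher and 4 lower in OP mice by fitted value (median log2 fold change 0.0038). *Ocln*, which encodes occludin, reached 63.2, 49.53 and 45.22 FPKM in OP mice 1, 2 and 3, against 42.58, 51.83 and 42.19 FPKM in OR mice 1, 2 and 3 (log2 fold change 0.20, standard error 0.17, adjusted p = 0.945 from limma-trend). *Epcam*, which encodes the adhesion protein that binds claudin 7, lay between 934.63 and 1187.94 FPKM with a log2 fold change of 0.0034, and *Jam2* (-0.47) and *Jam3* (-0.30), junctional adhesion molecules, had the smallest p of this list. Of 15 scaffold genes tested, 9 were higher and 6 lower, with a median of 0.12: *Tjp1*, which encodes the scaffold ZO-1, was at 0.20 (standard error 0.18), *Cgn*, which encodes cingulin, 0.20 and *Mpdz*, a PDZ scaffold, -0.42. Of 12 genes of adherens junctions and desmosomes, 10 were higher and 2 lower, with a median of 0.15, and *Cdh1*, which encodes E-cadherin, and *Afdn*, which encodes afadin, had 0.20 and 0.24. In these 3 lists 0 genes had an unadjusted limma-trend p below 0.05 in the fit of all 6 mice. With median-of-ratios scaling the genes that were higher numbered 9 of 12, 12 of 15 and 12 of 12, and with any one mouse left out they numbered 6 to 8 of 12, 7 to 12 of 15 and 9 to 11 of 12. The scaffold list turned to 7 higher and 8 lower, with a median of -0.02, without OP mouse 2. Without OP mouse 3, 1 membrane gene was lower and 1 scaffold gene higher with an unadjusted limma-trend p below 0.05. Of all 13340 genes in that fit, 1094 were lower and 178 higher at this p.

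Of 16 genes for factors that control claudin transcription or turnover, 11 were higher and 5 lower in OP mice (median 0.07), while 13 were higher with median-of-ratios scaling and 8 to 12 with any one mouse left out. *Klf5*, a transcription factor of crypt cells, was the one gene with an unadjusted p below 0.05 (log2 fold change -0.40, standard error 0.16, adjusted p = 0.945 from limma-trend), at 114.55, 143.7 and 144.97 FPKM in OP mice 1, 2 and 3, against 200.93, 148.17 and 185.82 FPKM in OR mice 1, 2 and 3. This was 1 gene of 16, beside 3.53% of all genes tested that were lower at this p, and 0 of the 16 were lower at this p with median-of-ratios scaling or without OP mouse 1, OR mouse 1 or OR mouse 3. *St14*, which encodes the protease matriptase, had 0.32. *Cdx2*, which encodes an intestinal CDX factor, lay between 179.5 and 245.73 FPKM, a far narrower range than that of *Cldn2*. *Cdx1*, which encodes another, stood at 146.84, 210.0 and 220.45 FPKM in OP mice 1, 2 and 3. In OR mice 1, 2 and 3 it stood at 220.66, 173.82 and 211.81 FPKM. OP mouse 1 was thus lowest in *Cdx1* and OR mouse 2 the next, as for *Cldn2*. A role of these factors was not tested. Of 8 genes of aldosterone-linked sodium transport tested, 5 were higher and 3 lower, with a median of 0.09, and *Atp1b1*, a sodium pump subunit, and *Scnn1b*, a subunit of the epithelial sodium channel, had 0.30 and -0.51. With median-of-ratios scaling 7 of these 8 were higher, but without OP mouse 2 only 3 were, with a median of -0.14.

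Markers of intestinal epithelium were strongly expressed: *Epcam*, *Cdx2*, *Lgals4* and *Krt20* were at 179.5 FPKM or more in every mouse. Of 12 epithelial genes 9 were higher and 3 lower in OP mice (median log2 fold change 0.05), with 11 higher after scaling by median of ratios and 6 without OR mouse 1. The genes *Vil1* (0.37) and *Cdx2* (0.16) had the smallest p, and the summed FPKM of the list was 11348 to 14911 in OP mice and 11278 to 14280 in OR mice. Stratified squamous epithelium, which also expresses *Cldn1*, was nearly absent: 8 of 10 markers found stayed below 1 FPKM in every mouse, *Krt5* was listed at 0 in 5 of 6 mice, and *Krt10* and *Sbsn* reached at most 2.7 FPKM (1 of the 2 tested was higher in OP mice, median 0.11).

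Markers of blood vessels and fibroblasts were lower in OP mice by fitted value. These were 12 of 12 blood endothelium genes (median -0.80, 11 with an unadjusted limma-trend p below 0.05, *Vwf* at -0.65 and *Cdh5* at -0.84), which include *Cldn5*, and 8 of 8 fibroblast genes (median -0.74, 7 below 0.05, *Col6a1* at -0.89 and *Dcn* at -2.03), against 3.53% of all genes tested that were lower at this p. In both lists 0 genes had a q-value below 0.2. Every OP mouse was below every OR mouse for 8 of the 12 endothelium and 6 of the 8 fibroblast genes, beside 6.81% of all genes tested. Their summed FPKM did not overlap between the groups, at 22.2 to 38.0 in OP mice and 41.3 to 75.1 in OR mice for endothelium and 103 to 180 and 266 to 472 for fibroblasts. *Dcn* alone supplied up to 191.45 FPKM of the fibroblast sum, in OR mouse 3. When any one mouse was left out the same counts stayed lower in both lists, but the genes below 0.05 numbered 2 without OR mouse 3, 6 without OP mouse 2, 7 without OP mouse 1 and 8 to 12 without each of the others for endothelium. For fibroblasts they numbered 4 without OP mouse 1, OR mouse 1 or OR mouse 3 and 5 to 7 without each of the others. Over all genes, those lower at this p ranged from 223 of 13366 without OR mouse 3 to 1094 of 13340 without OP mouse 3. Of 10 smooth muscle genes 10 were lower (8 after scaling by median of ratios), with a median of -0.34, *Acta2* at -0.50, *Myl9* at -0.43 and a summed FPKM of 1974 to 2849 in OP mice and 2358 to 4296 in OR mice. Without OR mouse 1 only 6 of the 10 smooth muscle genes were lower, with a median of -0.07. Of the mesothelium list, which was at low levels apart from the keratin gene *Krt19* that epithelial cells share, *Upk1b* was at -0.28, *Upk3b* at -0.33 and *Msln* at 0.14. Of 6 genes of Schwann cells and nerve 4 were lower, near the 70.1% of all genes, with *Mbp* at -0.48 and the neuronal genes *Elavl4* and *Tubb3* at 0.14 and 0.28. Of 7 adipocyte genes 6 were lower (median -0.62, *Cfd* at -2.89 and *Lep* at 0.62), and the median was between -1.19 and -0.11 with any one mouse left out, nearest to 0 without OR mouse 1 (-0.11) and OP mouse 2 (-0.28). The part of these cell types in the claudin values was not tested.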

How the data were processed

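Colon mRNA libraries, 1 per mouse, had been sequenced on the DNBSEQ platform. The authors filtered the reads, aligned them to a mouse gene set with Bowtie2 and quantified genes with RSEM, and deposited FPKM values rounded to 2 decimals. The labels give Bowtie2 version 2.2.5 and RSEM version 1.2.12, the methods give others, and the submitters' processing notes name HISAT2 version 2.0.4 and GRCm39. Depth per mouse is unknown, which leaves counting error out of every value given.

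Groups and mouse numbers came from the labels. Values of log2(FPKM + 1) were compared by limma-trend (limma 3.58.1, R 4.3.3) over genes with at least 0.5 FPKM in at least 3 mice, without covariates, and called with the fold and q-value limits given above. Fold changes on this scale understate those of low genes. For single genes, two-sided exact permutation tests of mean FPKM were added (SciPy 1.17.1, 20 arrangements). The fit was tested on simulated data. Because the labels do not describe how mice were housed or processed, p-values cover the spread between these mice only. The members, the classes and the marker lists were chosen with earlier results of these data known. Named genes were the members, *Cldn* genes with a mean of at least 1 FPKM, the 2 genes with the smallest p of each list with *Ocln*, *Tjp1*, *Cdh1*, *Cldn5* and *Epcam*, and the 3 nearest genes of the 3 most variable members. *Cdx1*, *Cldn14*, *Lgals4*, *Krt20*, *Krt5*, *Krt19*, *Msln*, *Elavl4* and *Tubb3* were named after their values were seen. For the Schwann cell and nerve list, 1 gene that this rule gives is not reported here. Alternatives were median-of-ratios scaling, another pseudocount, other filters, no trend, sample weights, a replicate block and each mouse left out.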

Additional observations from a re-analysis of the deposited data

How the results depend on the processing

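Over the 8 claudins tested and 13 alternatives, 104 fits in all, 0 calls were gained, the q-values lay between 0.439 and 1.0, and 97 fits kept their direction. With sample weights *Cldn8* turned to 0.025. The other reversals came with 1 mouse left out, where the log2 fold change ranged from -0.030 to 0.28 for *Cldn3*, from -0.52 to 0.80 for *Cldn4*, from -0.082 to 0.24 for *Cldn7* and from -1.07 to 0.46 for *Cldn8*. It kept its sign for *Cldn2* (-1.80 to -0.40), *Cldn12* (-0.33 to -0.02), *Cldn15* (-0.64 to -0.12) and *Cldn23* (0.36 to 0.62). The median of the 8 moved from -0.04 to 0.10 with median-of-ratios scaling, which moved the median of all genes from -0.10 to 0.01. The sealing to pore-forming difference, 0.86, ranged from 0.25 to 1.22 over the fits with 1 mouse fewer, and was 0.72 once the other claudins were put into the classes.

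Genes called lower in OP mice by the fold and q-value limits numbered 3, but 0 with median-of-ratios scaling, a pseudocount of 0.1, either other filter or a q-value below 0.05. They numbered 5 with sample weights, 2 without trend and 0 to 1 when any one mouse was left out (1 without OP mouse 2, 0 without each of the others). What caused this was not tested. With the replicate block 0 genes were called lower. Mice with the same number are different animals, and the correlations of their deviations from the group means were -0.144, -0.157 and 0.0709. Between OP and OR mice with different numbers these correlations lay between -0.464 and 0.537. No claudin call changed under the block. Counting error could not be given because depth is unknown.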
